A study of Mus musculus with 16 samples.

Results

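The comparison described here set 4 libraries labelled as Irf1-deleted against 4 labelled as floxed controls, 8 of the 16 libraries of the series, over all 16040 genes that passed a filter on low counts. With earlier results of these data known, the 8 libraries were chosen by their genotype label. The label was IRF1deltaXCR1 for the Irf1-deleted libraries and IRF1FF for the floxed controls. All came from tumours of YUMM1.7, a melanoma line of mice, engrafted and grown to 200 to 350 mm3, and no library had a treatment other than the engraftment. The series describes the material as sorted type 1 conventional dendritic cells (cDC1s), and the name of the deleted genotype holds XCR1, the chemokine receptor that marks these cells. The other 8 libraries carry floxed or deleted Ikbkb in the same kind of tumour.

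The growth notes name only female Ikbkb mice, so the genotype of every Irf1 library rests on that 1 label, and the sources used here give no age for the mice. The Cre allele, the efficiency of deletion and the deleted exons of Irf1 are likewise not given there. The labels do not say whether the 4 libraries of a group came from separate mice, and p-values then reflect how far these libraries spread, which may be technical. Replicate numbers only name a library and pair none.

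Irf1 encodes interferon regulatory factor 1, a transcription factor that cells make within a short time of interferon-gamma signalling. Interferon-gamma acts through its receptor and the JAK1 and JAK2 kinases, and the response uses a palindromic letter pattern called GAS in the Irf1 promoter. IRF1 then binds promoters through repeats of GAAA and takes part in the induction of guanylate-binding proteins, immunity-related GTPases, MHC class I genes and chemokines that attract T cells. In cDC1s, which present tumour antigen to CD8 T cells, these products include IL-12, CXCL9 and CXCL10.

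The promoter letters of 6 genes that the results return to are printed here. They show the site through which Irf1 itself is induced and the letters by which IRF proteins bind. They are 80-base stretches upstream of the start, from RefSeq with build GRCm38.p6, each 5′ to 3′ on the strand of its gene. In Irf1 the capitals mark a match to the GAS letters TTCNNNGAA. In the other genes they mark matches to the IRF half-site AANNGAAA or to GAAA repeated after 2 bases. Matches were searched on both strands, and the half-site can overlap the repeat. The stretch of Ddx58 holds a half-site alone, as the repeat of that promoter lies after the start, outside the stretch.
Irf1, chr11:53769888-53769967, plus strand: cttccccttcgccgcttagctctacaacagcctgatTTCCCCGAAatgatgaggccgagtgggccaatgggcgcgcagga
Gbp2, chr3:142620569-142620648, plus strand: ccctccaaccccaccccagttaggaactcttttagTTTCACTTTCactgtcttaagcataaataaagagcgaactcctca
Irgm2, chr11:58214878-58214957, plus strand: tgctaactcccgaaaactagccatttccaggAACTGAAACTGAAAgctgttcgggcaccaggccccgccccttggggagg
B2m, chr2:122147513-122147592, plus strand: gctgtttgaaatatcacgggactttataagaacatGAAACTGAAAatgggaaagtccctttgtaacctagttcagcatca
Cxcl10, chr5:92349058-92349137, minus strand: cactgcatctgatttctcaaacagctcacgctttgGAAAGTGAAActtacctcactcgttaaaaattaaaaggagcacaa
Ddx58, chr4:40239841-40239920, minus strand: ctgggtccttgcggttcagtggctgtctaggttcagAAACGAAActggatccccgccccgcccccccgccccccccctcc

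Of 32851 promoters of 300 bases, 8.3% held the GAS letters, 23.9% the half-site and 3.44% the repeat. Counted per gene, the repeat was in 5 of the 5 guanylate-binding proteins with a promoter in the table, 7 of 10 immunity-related GTPases, 15 of 28 type I interferon-stimulated genes and 4 of 15 MHC class I genes. It was in 1 of 17 cholesterol genes, 1 of 26 cell cycle genes and 3.99% of all 27025 genes. The promoters of Tap1, Psmb9, Cxcl9 and Casp1 held neither the half-site nor the repeat, which says only that these letters are not in those windows. Over all tested genes with a promoter in the table, the 454 with the repeat centred on a log2 fold change of -0.09 (median) and 60.4% of them lay below 0. The 10767 without it had a median of -0.01 with 50.6% below 0.

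Before any difference between groups, 3 features of the libraries touch what follows. Total counts ran between 19515548 and 27433818 in the Irf1-deleted libraries and between 18726833 and 24303369 in the floxed libraries. Mitochondrial reads made up 1.27% to 1.97% of counts in the Irf1-deleted libraries and 1.38% to 2.93% in the floxed ones, with the highest share in floxed replicate 4. Correlations of log2 CPM were taken over genes averaging 3 or more in log2 CPM over the 16 libraries. They ran between 0.822 and 0.957 for pairs of libraries with the same genotype. For pairs with different genotypes they ran between 0.794 and 0.963. The closest pair of all 28 joined the library labelled Irf1-deleted replicate 1 to floxed replicate 2.

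The libraries held RNA of several cell types. The 20 cDC1 genes summed to between 1113 and 4758 CPM in the Irf1-deleted libraries and between 1059 and 3081 CPM in the floxed libraries. The 17 fibroblast genes summed to between 20150 and 32150 CPM and between 21130 and 45310 CPM, and the 22 macrophage and monocyte genes to between 6329 and 12010 CPM and between 7344 and 18830 CPM. The pigment cell genes Tyr, Tyrp1, Dct, Mlana, Mc1r and Slc45a2 had no count in any of the 8 libraries. In such bulk libraries fewer cells of a type and less RNA per cell cannot be told apart.

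The targeted gene did not separate the labelled genotypes. Irf1 (ENSMUSG00000018899, mm10 chromosome 11, 53770014 to 53778374, plus strand) stood at 299, 123, 145 and 98.6 CPM in the Irf1-deleted libraries, against 141, 234, 152 and 268 CPM in the floxed libraries. CPM are counts relative to a TMM-scaled library total. The library labelled Irf1-deleted replicate 1 was the highest of all 8, and the groups overlapped. The means were 166 ± 90.5 CPM in the Irf1-deleted libraries and 199 ± 61.9 CPM in the floxed libraries (SD, n = 4 each). That is a fold of 0.836 with a 95% interval of 0.462 to 1.51 (log2 fold change -0.26, SE 0.40, adjusted p = 1 by edgeR). Over the 70 labellings, a two-sided exact permutation test gave p = 0.629. Once the library labelled Irf1-deleted replicate 1 was left out, Irf1 had -0.70 on the log2 scale, and with Irf1-deleted replicate 4 left out it had -0.07. A gene total sums reads over all exons, so this value cannot show whether some of them were deleted.

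**Figure D1:**
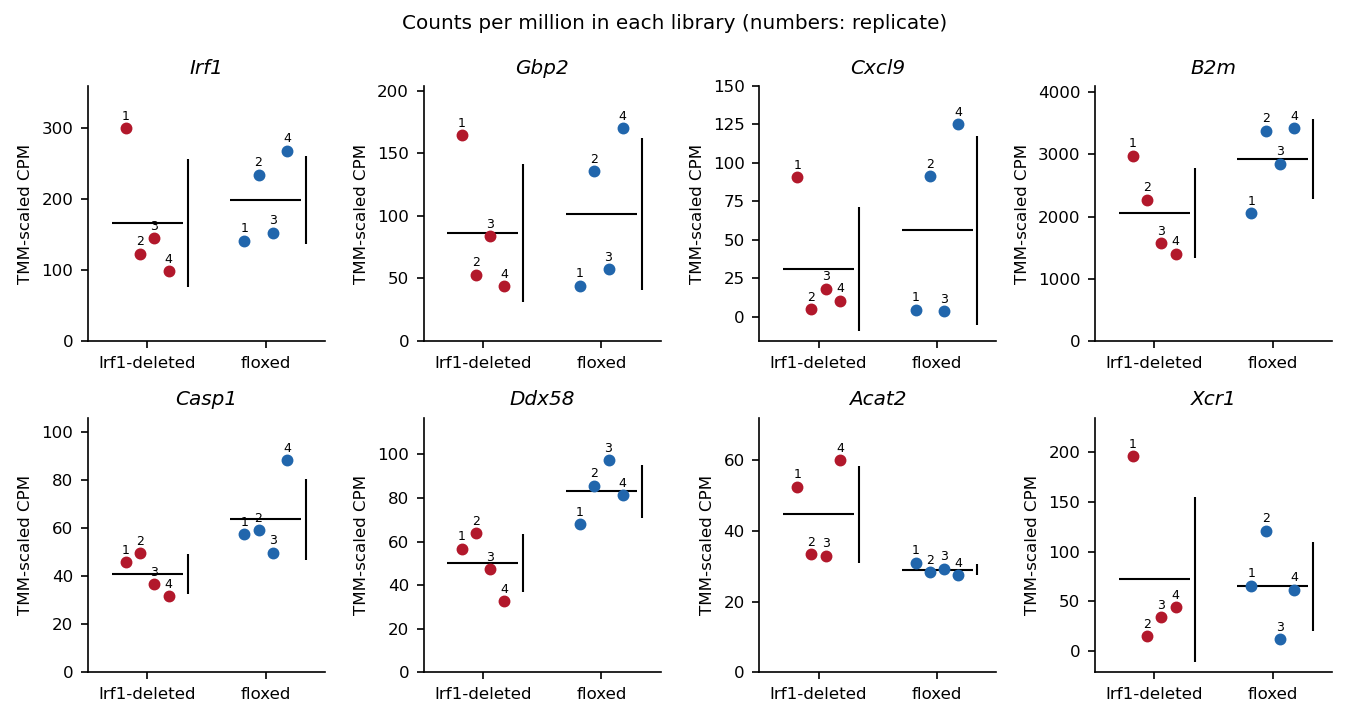
Each panel plots 1 gene in TMM-scaled CPM for the 4 Irf1-deleted libraries (red, left) and the 4 floxed libraries (blue, right), with the replicate number beside each point, the mean as a horizontal line and 1 SD either side as a vertical line. Irf1, Gbp2, Cxcl9 and Xcr1 are high both for the library labelled Irf1-deleted replicate 1 and for floxed replicate 2, while Casp1, Ddx58 and Acat2 do not overlap between the groups.

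No gene passed an adjusted p of 0.05 in the comparison (0 of 16040 genes, 0.0%, edgeR, smallest adjusted p = 1). At an unadjusted p under 0.05 there were 224 genes with a higher mean in the Irf1-deleted libraries (1.4%) and 195 with a lower one (1.22%), 419 in all. DESeq2 called 6 genes, limma voom with quality weights called 0. Values of the 2 groups did not overlap for 202 genes that were higher in every Irf1-deleted library (1.26%) and 262 that were lower in every one (1.63%). The median log2 fold change of all genes was -0.02, with 48.2% of genes above 0. By unadjusted p, Irf1 ranked 7595 of the 16040 genes. The typical SE of a log2 fold change was 0.42, and the typical spread between libraries of 1 genotype was 0.48 on the log2 scale. The values below are therefore descriptions of the libraries, and no gene named below passed the threshold by edgeR.

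The IRF family, Irf1 included, lay evenly about 0. Of 12 genes tested, 6 were above and 6 below, and the median of their log2 fold changes was 0.03, with a range of -0.16 to 0.10 when single libraries were left out. Irf8, which cDC1s need for their development, measured 886, 178, 357 and 437 CPM in the Irf1-deleted libraries, against 405, 586, 163 and 527 CPM in the floxed libraries. Irf7, which amplifies type I interferon, measured 331, 217, 172 and 174 CPM in the Irf1-deleted libraries and 194, 310, 241 and 415 CPM in the floxed ones. The groups overlapped for both genes, and the highest Irf8 value was in the library labelled Irf1-deleted replicate 1. Irf2, a competitor of IRF1 at the same sites, averaged 28.9 ± 3.41 CPM in the Irf1-deleted libraries and 30.0 ± 7.54 CPM in the floxed ones, and Irf9, the DNA-binding part of the type I interferon complex, averaged 89.0 ± 21.4 and 93.3 ± 12.1 CPM (SD, n = 4 each). Irf2bp1, which encodes a partner of IRF2, had the smallest unadjusted p of the family (0.0872) with a log2 fold change of 0.36 (SE 0.20).

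Of the receptors, kinases, transcription factors and feedback genes that carry the interferon signal, 15 of 22 lay below 0, at a median log2 fold change of -0.12, or between -0.18 and -0.060 with single libraries left out. Ifngr1, a chain of the interferon-gamma receptor, had nearly the same level in all libraries, with a mean of 185 ± 10.7 CPM in the Irf1-deleted libraries and 185 ± 16.3 CPM in the floxed libraries (SD, n = 4 each). The 95% interval of its fold was 0.658 to 1.51. Stat2, a subunit of the type I interferon complex, differed by -0.85 on the log2 scale (SE 0.52, adjusted p = 1 by edgeR). Socs1, a feedback inhibitor of JAK kinases, averaged 22.4 ± 4.72 CPM in the Irf1-deleted libraries and 24.9 ± 7.70 CPM in the floxed libraries.

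Among genes with a known link to IRF1, 22 of 25 lay below 0, at a median log2 fold change of -0.25. That median was -0.76 when the library labelled Irf1-deleted replicate 1 was left out and -0.094 when floxed replicate 4 was. Casp1, the protease that matures IL-1 beta and IL-18, was the single gene of the list with no overlap, beside 1.63% of all genes lower without overlap. It measured 45.9, 49.7, 36.6 and 31.7 CPM in the Irf1-deleted libraries, against 57.4, 59.0, 49.8 and 88.3 CPM in the floxed libraries. The fold was 0.644 with a 95% interval of 0.411 to 1.01 (unadjusted p = 0.055, edgeR adjusted p = 1), and Irf1-deleted replicate 2 all but touched floxed replicate 3. Cd274, which encodes the checkpoint ligand PD-L1, measured 29.3, 5.28, 8.79 and 9.49 CPM in the Irf1-deleted libraries and 9.29, 43.5, 11.01 and 28.0 CPM in the floxed libraries, and the groups overlapped in part.

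The guanylate-binding proteins, interferon-induced GTPases that attack the vacuoles of pathogens, lay below 0 for 10 of 11 genes, and the list median was -0.69 on the log2 scale. Gbp2 measured 165, 53.0, 84.0 and 43.6 CPM in the Irf1-deleted libraries, against 44.1, 136, 57.7 and 170 CPM in the floxed libraries. The library labelled Irf1-deleted replicate 1 and floxed replicates 2 and 4 were the 3 highest, whatever the genotype, and the other 5 libraries reached at most 84.0 CPM. Gbp4, the member with the smallest p, had 52.8, 12.8, 9.68 and 5.82 CPM in the Irf1-deleted libraries and 13.2, 54.3, 21.8 and 88.9 CPM in the floxed libraries (log2 fold change -1.14, SE 0.71). For 10 of the 11 genes the 3 highest libraries were the library labelled Irf1-deleted replicate 1 and floxed replicates 2 and 4. Once the library labelled Irf1-deleted replicate 1 was left out, the median of the list was -1.61, and without floxed replicate 4 it was -0.24.

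The immunity-related GTPases, a second family of interferon-induced GTPases, all had a fitted log2 fold change below 0, 14 of 14 tested, at a median of -0.55. Irgm2, with the repeat shown above in its promoter, measured 61.5, 43.6, 37.4 and 29.0 CPM in the Irf1-deleted libraries, against 45.8, 71.3, 60.6 and 65.6 CPM in the floxed libraries. Its log2 fold change was -0.50 (SE 0.34, unadjusted p = 0.153), and floxed replicates 1 and 3 lay below the library labelled Irf1-deleted replicate 1. Ifi47, the most abundant member, had 269, 205, 176 and 163 CPM in the Irf1-deleted libraries and 171, 259, 212 and 425 CPM in the floxed ones. The same 3 libraries were the highest for 13 of the 14 genes. The median was -1.35 once the library labelled Irf1-deleted replicate 1 was left out, and ran between -0.86 and -0.37 when any other library was left out.

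MHC class I molecules present peptides to CD8 T cells, and 13 of 18 genes of this pathway lay below 0, at a median log2 fold change of -0.25, which ran between -0.66 and -0.16 over the fits that left 1 library out. B2m, the light chain of every class I molecule, measured 2983, 2274, 1576 and 1405 CPM in the Irf1-deleted libraries, against 2054, 3384, 2851 and 3418 CPM in the floxed libraries. The fold was 0.704 with a 95% interval of 0.472 to 1.05 (unadjusted p = 0.0801). H2-D1, a class I heavy chain, had 3543, 2523, 1986 and 1532 CPM in the Irf1-deleted libraries and 2215, 3537, 2823 and 4476 CPM in the floxed libraries. In both genes floxed replicates 1 and 3 lay below the library labelled Irf1-deleted replicate 1, and the other 3 Irf1-deleted libraries lay below floxed replicates 2, 3 and 4. Nlrc5, the transactivator of class I genes, measured 52.2, 27.2, 32.4 and 8.24 CPM in the Irf1-deleted libraries, against 30.1, 63.7, 23.1 and 90.6 CPM in the floxed libraries (log2 fold change -0.79, SE 0.67). Tap1, which carries peptides into the endoplasmic reticulum, had a log2 fold change of -0.11 (SE 0.57), with 419 CPM for the library labelled Irf1-deleted replicate 1, and 116 to 170 CPM in the other 3.

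The 5 immunoproteasome genes, whose products cut proteins into class I peptides, had a median of -0.13 with all 5 below 0, but the median was 0.26 without floxed replicate 4 and -0.33 without floxed replicate 3. Psmb8 and Psmb9, its catalytic subunits, averaged 295 ± 166 and 180 ± 115 CPM in the Irf1-deleted libraries and 329 ± 157 and 214 ± 146 CPM in the floxed libraries (SD, n = 4 each), so the spread within either group exceeded the difference. Genes of MHC class II presentation lay on both sides, 10 above and 7 below 0, with a median of 0.03 that ran between -0.28 and 0.38 with 1 library left out. Ciita, the transactivator of class II genes, measured 120, 31.0, 63.5 and 38.0 CPM in the Irf1-deleted libraries, against 48.9, 91.2, 27.4 and 103 CPM in the floxed ones. Cd74, the invariant chain, ranged between 2412 and 8862 CPM in the Irf1-deleted libraries and between 1673 and 9284 CPM in the floxed libraries.

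Cytokines and chemokines that act on T cells varied widely. Of 19 tested, 15 lay below 0 at a median log2 fold change of -0.44. Leaving out the library labelled Irf1-deleted replicate 1 made that median -1.18, and leaving out floxed replicate 4 turned it to 0.14. Cxcl9, a chemokine for CXCR3-bearing T cells, measured 90.9, 5.07, 18.4 and 10.7 CPM in the Irf1-deleted libraries, against 4.73, 91.4, 3.86 and 125 CPM in the floxed libraries. Its values formed a high and a low set that cut across the genotypes, with the library labelled Irf1-deleted replicate 1 and floxed replicates 2 and 4 in the high set. Cxcl10, a chemokine for the same receptor, with the repeat shown above, had 164, 99.0, 72.1 and 61.8 CPM in the Irf1-deleted libraries and 52.0, 220, 134 and 345 CPM in the floxed ones. Its fold was 0.528 with a 95% interval of 0.239 to 1.17 (unadjusted p = 0.108). Il12b, the p40 chain of IL-12, measured 204, 6.85, 20.6 and 3.84 CPM in the Irf1-deleted libraries and 13.0, 109, 6.35 and 120 CPM in the floxed libraries, a difference in log2 fold of -0.08 with an SE of 1.1.

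Other cytokines differed in how far they spread. Il15, a growth factor of NK and memory CD8 T cells, averaged 18.5 ± 3.502 CPM in the Irf1-deleted libraries and 22.04 ± 10.6 CPM in the floxed ones (SD, n = 4 each), and its highest value, 37.6 CPM, was in floxed replicate 4. Il27, which encodes a subunit of IL-27, had 2.38 CPM for the library labelled Irf1-deleted replicate 1 and none in the other 3, against 0.695 and 0.331 CPM in floxed replicates 2 and 4 and none in floxed replicates 1 and 3. Il12a, the other chain of IL-12, had no count in any of the 8 libraries. Ccl22, a chemokine of mature dendritic cells, averaged 170 ± 155 CPM in the Irf1-deleted libraries and 216 ± 112 CPM in the floxed libraries. The summed list was 1360 CPM for the library labelled Irf1-deleted replicate 1 and 348 to 513 CPM in the other 3, against 1144 and 1808 CPM in floxed replicates 2 and 4 and 432 and 399 CPM in floxed replicates 1 and 3.

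As a sum, the T and NK cell markers were highest in the same 3 libraries, though not in the same order. Ccl5 is both in this list and in that of the cytokines. They summed to 326 CPM for the library labelled Irf1-deleted replicate 1 and 109 to 144 CPM in the other 3, against 348 and 963 CPM in floxed replicates 2 and 4 and 87.0 and 134 CPM in floxed replicates 1 and 3. Of the 23 markers tested, 22 lay below 0, the median was -1.06 on the log2 scale, and 22 were highest in floxed replicate 4. Ifng, which encodes interferon-gamma and is made by T and NK cells, had 0.778 CPM for the library labelled Irf1-deleted replicate 1 and no count in the other 3. In the floxed libraries it had 0.172, 2.68, 0.522 and 3.83 CPM. The macrophage and monocyte markers lay below 0 for 22 of 22 genes at a median of -0.50, and 17 of them were highest in floxed replicate 4. What part these cells have in the differences of interferon genes was not tested. A T and NK score, the mean log2 CPM of the markers in a library and not their sum, was also used as a covariate. With it the log2 fold change was -0.01 for Irf1, 0.24 for Gbp2 and 0.57 for Cxcl9, against -0.26, -0.24 and -0.85 without it. With it the sign also turned for Irf2, Irf7, Irf9, Ifngr1, Socs1, Tap1, Psmb8, Psmb9, Ciita, Il12b, Il15, Ccr7, Cd74, Ly6e and Lyz2. Casp1, B2m, Cxcl10, Nlrc5 and Cd274 were among the named genes whose sign did not turn with this covariate. An unchanged sign does not say how far a value moved.

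**Figure D2:**
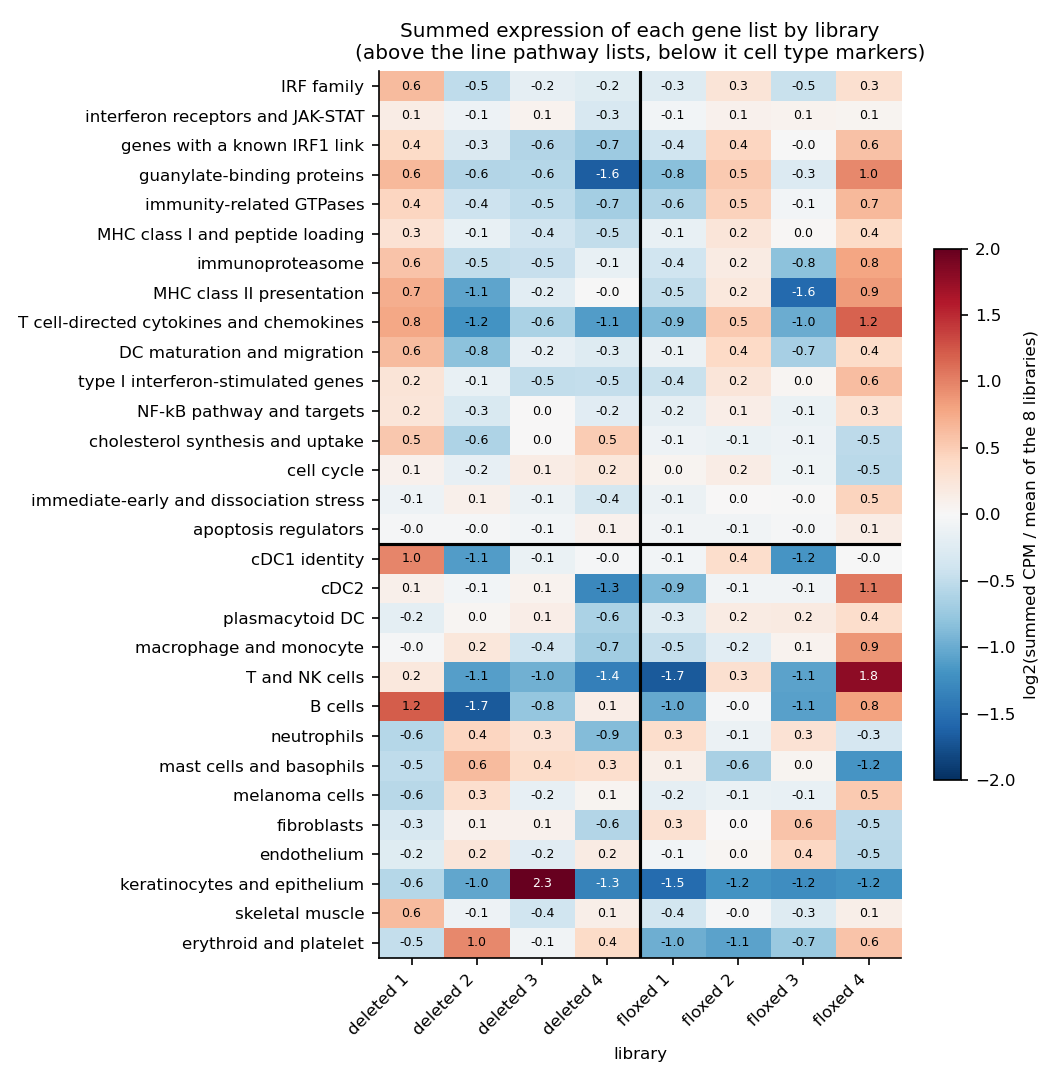
The heat map shows the log2 ratio of the summed CPM of each gene list in a library to the mean of the 8 libraries, with Irf1-deleted libraries left of the line, floxed libraries right of it, pathway lists above and cell type markers below. Interferon lists and T and NK markers are above the mean for the library labelled Irf1-deleted replicate 1 and for floxed replicates 2 and 4, and keratinocyte genes stand out in Irf1-deleted replicate 3 (2.3 above the mean on the log2 scale).

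Irf1 itself ran with some of these genes across the libraries by Pearson's r, while no Spearman's rho passed an adjusted p of 0.05. Over the 25 other fixed genes, the correlation of log2 CPM with Irf1 over the 8 libraries was above 0 for 25 of 25. Gbp2 had a Pearson r of 0.942 (exact permutation p = 0.00126, adjusted p = 0.0158 over 25 relations) and a Spearman rho of 0.929 (exact permutation p = 0.00223, adjusted p = 0.0558). Nlrc5 had an r of 0.887 (exact permutation p = 0.00248, adjusted 0.0207) and a rho of 0.786 (exact permutation p = 0.0279, adjusted 0.0635). Ifngr1 had an r of 0.423 (exact permutation p = 0.295, adjusted 0.308) and a rho of 0.167 (exact permutation p = 0.703, adjusted 0.703). Pearson's r passed an adjusted p of 0.05 for 15 of the 25 genes and Spearman's rho for 0. Correlations with Irf1 were computed for these 25 genes alone. The share of all genes that would be above 0 or pass is therefore not known, and the counts have no background. Leaving out the library labelled Irf1-deleted replicate 1 and floxed replicate 4, whose Irf1 was farthest from the median, the r was 0.863 for Gbp2 and 0.9 for Nlrc5 over 6 libraries. For Psmb9, which had an r of 0.779 (exact permutation p = 0.0292, adjusted 0.0487) over all 8, it was 0.365, so that relation rests on those libraries, and for Irf9, Batf3 and Il15 it was below 0 at -0.229, -0.0722 and -0.0198. The points share library composition, and the T and NK sums above ran with them.

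**Figure D3:**
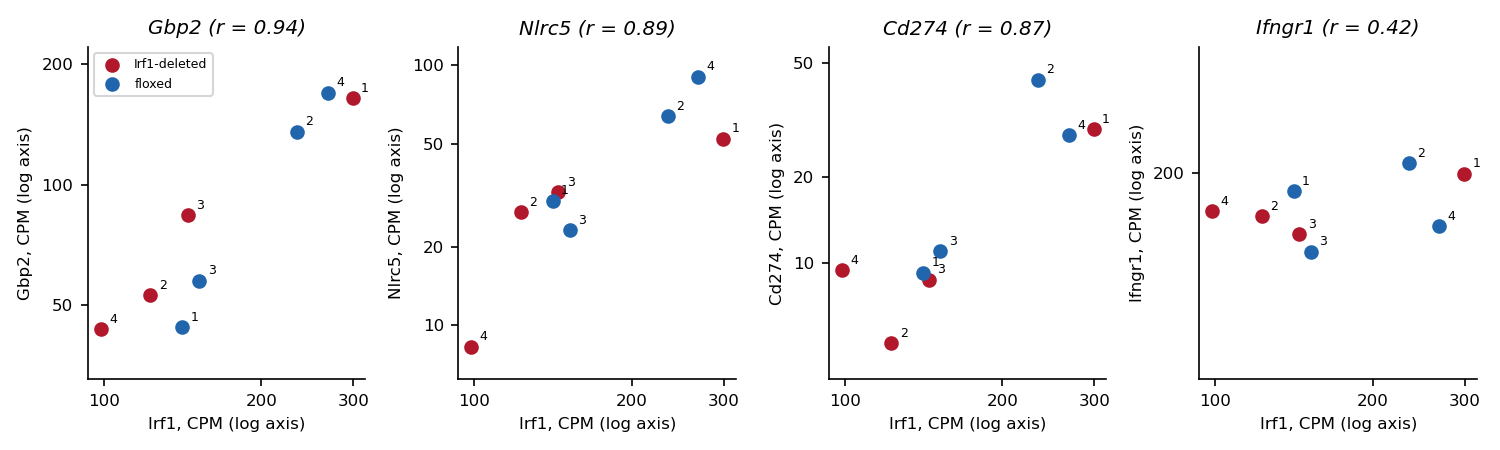
Each panel plots 1 gene against Irf1, both in CPM on log axes, for the 4 Irf1-deleted libraries (red) and the 4 floxed libraries (blue), with replicate numbers and Pearson's r of log2 CPM. For Gbp2, Nlrc5 and Cd274 libraries of both genotypes with more Irf1 mostly have more of the gene, with the library labelled Irf1-deleted replicate 1 farthest right beside floxed replicates 2 and 4, while Ifngr1 stays near 185 CPM.

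Type I interferon-stimulated genes, which block viral replication, had 40 of 41 members below 0, at a list median of -0.47, or between -0.71 (without floxed replicate 1) and -0.24 (without floxed replicate 4). Ddx58, which encodes the RNA sensor RIG-I, was the member with the smallest p. It measured 56.7, 63.9, 47.2 and 32.8 CPM in the Irf1-deleted libraries, against 68.0, 85.6, 97.4 and 81.1 CPM in the floxed libraries. Every Irf1-deleted library lay below every floxed one, including the library labelled Irf1-deleted replicate 1, with a fold of 0.604 and a 95% interval of 0.427 to 0.854 (unadjusted p = 0.00713, edgeR adjusted p = 1). In the list 2 of 41 genes were lower without overlap, beside 1.63% of all genes. The other was Mx2, an antiviral GTPase named here after its values were seen, with 5.22, 5.17, 3.46 and 0.404 CPM in the Irf1-deleted libraries and 6.37, 12.1, 12.3 and 14.6 CPM in the floxed libraries. Ly6e, the most abundant member, averaged 1437 ± 241 CPM in the Irf1-deleted libraries and 1484 ± 184 CPM in the floxed ones (SD, n = 4 each).

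Genes of dendritic cell maturation and migration had 22 of 25 members below 0, at a median of -0.31 that ran between -0.78 and -0.081 with 1 library left out. Ccr7, the receptor that guides mature dendritic cells to lymph nodes, measured 409, 45.8, 166 and 125 CPM in the Irf1-deleted libraries, against 164, 272, 67.0 and 246 CPM in the floxed libraries, and its fitted fold was 0.997. Fscn1, an actin bundler of mature dendritic cells, had a log2 fold change of 0.21 (SE 0.35). The cDC1 genes themselves lay above 0 for 18 of 20 at a median of 0.15, and 18 of the 20 were highest in the library labelled Irf1-deleted replicate 1. Xcr1 measured 196, 14.8, 34.4 and 44.0 CPM in the Irf1-deleted libraries, against 65.9, 121, 12.1 and 61.8 CPM in the floxed ones, and leaving out both the library labelled Irf1-deleted replicate 1 and floxed replicate 4 gave -1.10 on the log2 scale instead of 0.15. Batf3, a factor that cDC1s need, averaged 12.1 ± 6.47 CPM in the Irf1-deleted libraries and 10.5 ± 8.18 CPM in the floxed libraries.

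The NF-kB pathway, which the series title names beside IRF1, had 21 of 28 genes below 0 at a median of -0.12, and without floxed replicate 4 the median was 0.015. Nfkbia, the inhibitor that NF-kB induces against itself, averaged 271 ± 39.6 CPM in the Irf1-deleted libraries and 263 ± 55.8 CPM in the floxed libraries (SD, n = 4 each). Tnfaip3, which encodes the feedback inhibitor A20, averaged 51.0 ± 8.64 and 69.6 ± 25.8 CPM, with the highest value, 102 CPM, in floxed replicate 4.

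**Figure D4:**
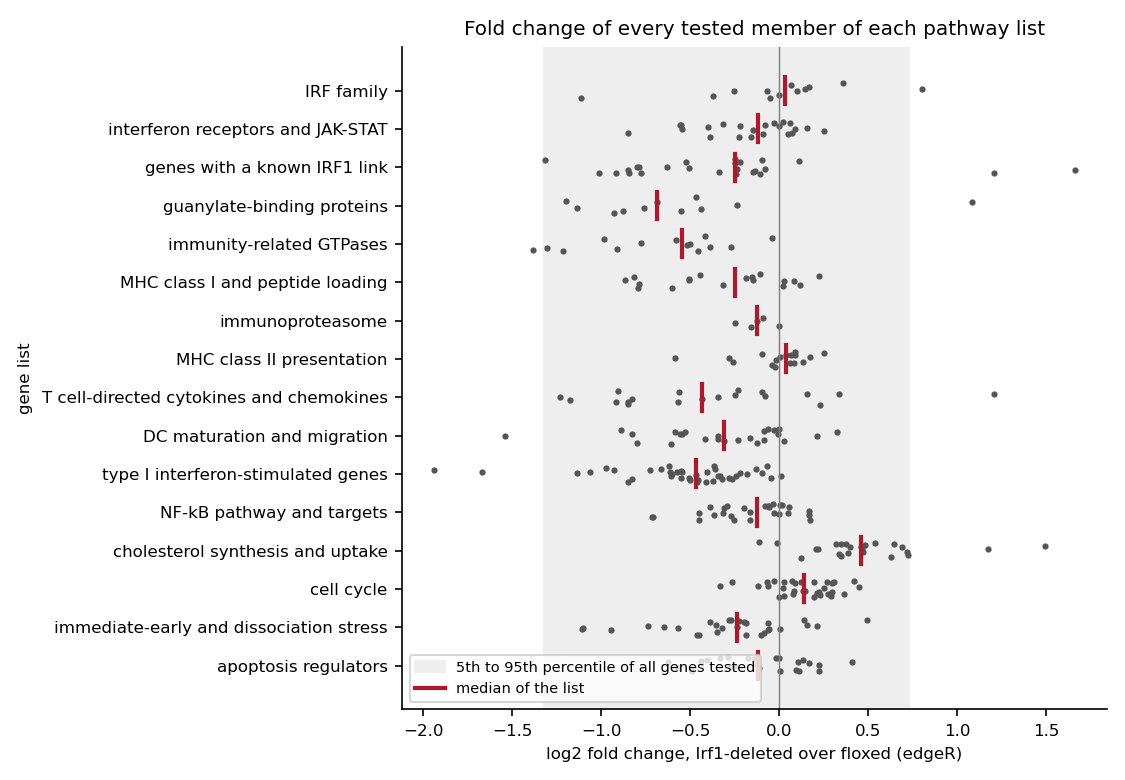
Every tested member of each pathway list is a point at its edgeR log2 fold change, Irf1-deleted over floxed, with the median of the list as a red bar and the 5th to 95th percentile of all genes (-1.32 to 0.73) in grey. Members of the interferon lists lie mostly below 0 and those of the cholesterol list mostly above it, within the range of all genes with few exceptions.

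Outside the interferon lists, genes of cholesterol synthesis and uptake had the largest positive median of the pathway lists, 0.46, with 23 of 25 members above 0, and 0.28 once the library labelled Irf1-deleted replicate 1 was left out. Acat2, which makes acetoacetyl-CoA for the pathway, measured 52.6, 33.5, 33.0 and 60.1 CPM in the Irf1-deleted libraries, against 31.0, 28.3, 29.3 and 27.4 CPM in the floxed libraries. The groups did not overlap, with Irf1-deleted replicates 2 and 3 close above floxed replicate 1, and the fold was 1.54 with a 95% interval of 1.11 to 2.15 (unadjusted p = 0.0132, edgeR adjusted p = 1). Acat2 was 1 of 25 genes higher without overlap, beside 1.26% of all genes. Srebf2, the master regulator of the pathway, averaged 326 ± 97.3 CPM in the Irf1-deleted libraries and 261 ± 49.8 CPM in the floxed libraries. The list summed to 1947 and 1904 CPM for the library labelled Irf1-deleted replicate 1 and in replicate 4, and to 882 and 1357 CPM in replicates 2 and 3, against 938 to 1259 CPM in the floxed libraries. Of the 25 genes, 15 were highest in Irf1-deleted replicate 4 and 9 in the library labelled Irf1-deleted replicate 1.

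Cell cycle genes had a median of 0.14 with 25 of 32 above 0, and 0.03 without floxed replicate 4, whose sum of 3038 CPM was the lowest of the 8. Aurkb, a mitotic kinase, had the smallest p of the list with 129 ± 31.5 CPM in the Irf1-deleted libraries and 94.8 ± 19.7 CPM in the floxed ones (SD, n = 4 each, unadjusted p = 0.0874), while Rrm1, a subunit of ribonucleotide reductase, averaged 310 ± 45.9 and 266 ± 86.3 CPM. Immediate-early and stress genes, which can respond to tissue dissociation, lay below 0 for 24 of 29 at a median of -0.24, and at -0.03 without floxed replicate 4, in which 17 of the 29 were highest. Egr2, a growth-response factor, measured 5.13, 8.35, 5.48 and 5.01 CPM in the Irf1-deleted libraries, against 7.75, 6.46, 17.8 and 19.6 CPM in the floxed libraries (unadjusted p = 0.0278). Jun averaged 896 ± 200 and 1091 ± 208 CPM. Apoptosis regulators had a median of -0.12 with 15 of 24 below 0, or 0.030 without floxed replicate 4, and Xiap, an inhibitor of caspases, averaged 14.99 ± 5.57 CPM in the Irf1-deleted libraries and 22.3 ± 5.13 CPM in the floxed ones.

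**Figure D5:**
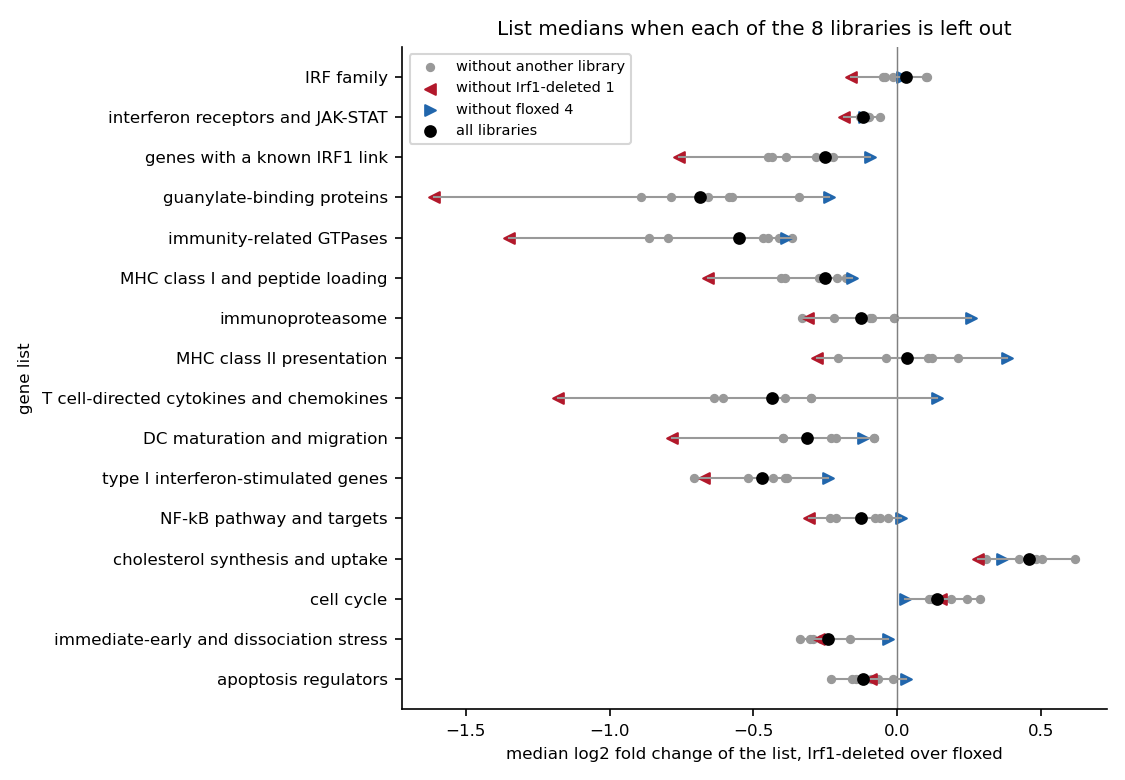
The median log2 fold change of each pathway list is shown with all libraries (black) and with each of the 8 libraries left out, red triangles for leaving out the library labelled Irf1-deleted replicate 1, blue triangles without floxed replicate 4 and grey points without another library. The medians of both GTPase families and of the cytokines reach -1.61, -1.35 and -1.18 when the library labelled Irf1-deleted replicate 1 is left out, and the cytokine median is 0.14 without floxed replicate 4.

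Of the genes named for a small unadjusted p and no overlap, which the choice itself fixes, the 10 higher ones were Prpf4, Tubb3, Eif2b4, Kxd1, Mri1, Coq8a, Crabp2, Cops7a, Mpv17l2 and B3galt6, with log2 fold changes between 0.50 and 1.87. Prpf4, a splicing factor of the U4/U6 particle, measured 48.5, 42.7, 43.2 and 74.1 CPM in the Irf1-deleted libraries, against 26.3, 33.8, 35.9 and 23.6 CPM in the floxed libraries (unadjusted p = 0.003). Eif2b4, a subunit of the exchange factor of translation initiation, had 60.3, 66.8, 58.0 and 69.3 CPM in the Irf1-deleted libraries and 50.7, 47.2, 43.3 and 34.9 CPM in the floxed ones. Its fold was 1.44 with a 95% interval of 1.15 to 1.81. Crabp2, which carries retinoic acid, had the largest fold of the 10 at 3.65 (95% interval 1.59 to 8.34), with 20.8, 29.8, 58.1 and 77.5 CPM in the Irf1-deleted libraries and 7.96, 17.8, 13.0 and 12.2 CPM in the floxed libraries. Coq8a, an enzyme of coenzyme Q synthesis, averaged 20.4 ± 4.30 and 9.08 ± 3.32 CPM.

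The 10 lower ones were Khdc4, Leng8, Adamts10, Ddx58, Map3k4, Nktr, Tsc22d2, Ascc3, Zfp282 and Dlg4, with log2 fold changes between -1.05 and -0.64. Khdc4, an RNA-binding protein of the spliceosome, measured 32.2, 36.7, 32.4 and 30.6 CPM in the Irf1-deleted libraries, against 50.2, 58.5, 55.2 and 51.7 CPM in the floxed libraries. Both groups were tight, and the fold was 0.612 with a 95% interval of 0.461 to 0.813 (unadjusted p = 0.00211, edgeR adjusted p = 1). Map3k4, a stress kinase, averaged 32.2 ± 7.45 CPM in the Irf1-deleted libraries and 50.3 ± 6.77 CPM in the floxed ones (SD, n = 4 each). Nktr, a cyclophilin-like protein first described in NK cells, averaged 30.3 ± 10.4 and 52.9 ± 11.2 CPM. C3, the central complement protein, was 1 of the genes named for their spread, with 67.5, 106, 102 and 5.09 CPM in the Irf1-deleted libraries and 209, 133, 412 and 277 CPM in the floxed libraries, with no overlap and a fold of 0.272 (95% interval 0.0845 to 0.878, unadjusted p = 0.0316). C3 is also made by fibroblasts, whose markers lay below 0 for 17 of 17 genes at a median of -0.32, and Col3a1, a fibroblast collagen, averaged 6023 ± 1894 CPM in the Irf1-deleted libraries and 8397 ± 4282 CPM in the floxed libraries. The part of fibroblast RNA in the C3 values was not tested.

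Genes of skin keratinocytes and of red cells also differed between libraries. Krt14, a keratin of basal skin cells named here after its values were seen, had the smallest unadjusted p of all genes (0.000257, edgeR adjusted p = 1). It measured 46.6, 1.71, 572 and 0.121 CPM in the Irf1-deleted libraries, against 0, 0.397, 0.0402 and 0.0472 CPM in the floxed libraries. Irf1-deleted replicates 1 and 3 were far above all others, and Irf1-deleted replicate 4 lay below floxed replicate 2. Of 15 keratinocyte and epithelial genes tested, 8 had an unadjusted p under 0.05 and a higher mean in the Irf1-deleted libraries, beside 1.4% of all genes. DESeq2 called 4 of them, Trp63, Krt14, Dsp and Cldn3, each with no count in at least 1 of the 8 libraries. Of the 15 genes, 10 were highest in Irf1-deleted replicate 3. Hbb-bs, a beta-globin of red cells, measured 145, 416, 217 and 293 CPM in the Irf1-deleted libraries, against 108, 77.5, 126 and 248 CPM in the floxed libraries (log2 fold change 0.94, SE 0.35, unadjusted p = 0.0162), with Irf1-deleted replicate 2 the highest. Of 8 erythroid and platelet genes, 4 globins had an unadjusted p under 0.05 and a higher mean in the Irf1-deleted libraries, beside the same 1.4% of all genes. Lyz2, a lysozyme of macrophages and neutrophils, averaged 629 ± 288 CPM in the Irf1-deleted libraries and 1231 ± 1302 CPM in the floxed ones, where replicate 4 alone held 3068 CPM.

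The change with Irf1 deletion was set against that with Ikbkb deletion, which used other libraries of the same fit. No gene passed the test of the difference between both deletions (0 of 16040 genes, 0.0%, edgeR), while 455 had an unadjusted p under 0.05 and DESeq2 called 12. Kdm4b, a histone demethylase, had the smallest p of the genes the rule named, with a log2 fold change of 0.63 in the Irf1 set and -1.63 in the Ikbkb set (difference 2.27, SE 0.44, unadjusted p = 0.0001). Khdc4 had -0.71 and 0.48 (difference -1.19, SE 0.27, unadjusted p = 0.000523), and Car13, a carbonic anhydrase, 0.41 and -0.60 (difference 1.02, SE 0.27). For the interferon lists the 2 deletions gave medians of the same sign, which was not particular to them. In the Irf1 and the Ikbkb set, cholesterol genes had 0.46 and 0.23, cell cycle genes 0.14 and 0.17, and NF-kB genes -0.12 and -0.30. Of the pathway lists, signs differed only for the IRF family (0.03 and -0.45) and MHC class II presentation (0.03 and -0.03). Guanylate-binding proteins had a median of -0.69 in the Irf1 set and -1.04 in the Ikbkb set, immunity-related GTPases -0.55 and -0.85, and type I interferon-stimulated genes -0.47 and -0.76. Irf1 had a log2 fold change of -0.26 in its own set and -0.65 in the Ikbkb set, a difference of 0.39 (SE 0.57, edgeR adjusted p = 1).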

How the data were processed

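RNA of 16 libraries was measured, of which 8 enter this comparison. The deposited values are raw read counts by Ensembl gene ID, not normalized. HTSeq 0.6.1p1, STAR 2.5.3a, cutadapt 1.10 and bcl2fastq 2.17.1.14 are named in the submitters' processing notes, with build mm10. The annotation release and strand setting are not given in the sources used here, so reads of overlapping antisense genes cannot be told apart. Of 32697 genes, 32684 were matched to GENCODE M21 symbols. PCR reads are not independent molecules.

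The analysis used edgeR 4.0.16 in R 4.3.3 (filterByExpr, minimum count 10, TMM, quasi-likelihood fit of all 16 libraries with a mean per group, Benjamini-Hochberg adjustment, called under 0.05). Log2 CPM used a prior count of 2. Intervals are 95%. Alternatives used limma 3.58.1, always as voom with a quality weight for each library, and DESeq2 1.42.0. The pipeline was run on simulated data with less spread between libraries than these data have (common coefficient of variation 0.617). That run therefore does not show how many changes would be missed at the spread seen here. Promoters are RefSeq windows from 250 bases before to 50 after a start.

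The libraries, lists and genes were chosen with earlier results of these data known. Genes named were a fixed list, per pathway list the most abundant member and that with the smallest p, and, with no gene called, 10 per side by unadjusted p without overlap and averaging 3 or more in log2 CPM, plus genes of large spread and of large difference between deletions. Not all of these are printed, and 1 gene of the fixed list is not reported here. Stretches of promoters other than that of Gbp2, and the GAS letters, were added after the values were seen.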

Additional observations from a re-analysis of the deposited data

Results flagged for a closer look

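A library of 1 group stood far from the other 3 of that group for 20 of 206 sets of 4 values looked at. The rule flags about 1 in 20 sets of independent, normally distributed values. Some of these genes were named for their large spread, and many vary together within a library. The 20 flags can therefore not be read as an excess over chance. In the library labelled Irf1-deleted replicate 1, the highest of its group, Cxcl9 was 90.9 CPM, Il12b 204 CPM, Il27 2.38 CPM, Ifng 0.778 CPM, Gbp4 52.8 CPM and Xcr1 196 CPM, and the sums of T cell-directed cytokines (1360 CPM) and of T and NK markers (326 CPM) were also apart. In Irf1-deleted replicate 2, Egr2 was 8.35 CPM. In Irf1-deleted replicate 3 the keratinocyte sum was 1460 CPM, against 104 CPM in floxed replicate 1, which stood below its own group. In Irf1-deleted replicate 4, Tubb3 was 73.4 CPM, Xiap 6.74 CPM and the cDC2 sum 100.3 CPM. In floxed replicate 4, Leng8 was 109.6 CPM, Nktr 69.5 CPM, the cholesterol sum 938 CPM, the melanoma sum 135 CPM and the erythroid sum 556 CPM. In floxed replicate 3, Kdm4b was 59.4 CPM.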

How the results depend on the processing

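No paired analysis was possible because the labels give no replicate numbers. DESeq2 called 6 genes (Trp63, Fgb, Krt14, Fcgbp, Dsp and Cldn3, all higher, each at 0 in at least 1 of the 8 libraries) and 12 for the difference between deletions, where edgeR called 0 of each. The difference had 0 to 1 calls when 1 library was left out. Genes at an unadjusted p under 0.05, 419 in the main analysis, numbered 1491 with no filter, 274 with at least 5 CPM in 4 libraries, 763 with limma voom, 630 with a cDC1 covariate and 233 (without Irf1-deleted replicate 4) to 700 (without the library labelled Irf1-deleted replicate 1). Leaving out 1 library put the median of the immunity-related GTPases between -1.35 and -0.37 and that of the apoptosis regulators between -0.23 and 0.030. RLE and upper-quartile scaling, the robust fit and the fit of only the 8 libraries turned no direction of a named gene.

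The log2 fold changes of some genes turned sign, and the cause was not tested. With limma voom and its quality weights they were Irf2 0.081, Socs1 0.052, Gbp2 0.19, Psmb9 0.017, Ciita 0.13, Cxcl9 0.51, Il15 0.081, Xcr1 -0.16, Cd74 0.31 and Lyz2 0.36. With the T and NK score as covariate they were Irf2 0.15, Irf7 0.00031, Irf9 0.084, Ifngr1 0.11, Socs1 0.14, Gbp2 0.24, Tap1 0.19, Psmb9 0.30, Psmb8 0.20, Ciita 0.26, Cxcl9 0.57, Il12b 0.36, Il15 0.030, Ccr7 0.24, Cd74 0.47, Ly6e 0.068 and Lyz2 0.082. With the fibroblast score they were Irf8 -0.65, Il27 -0.0042, Xcr1 -1.11, Batf3 -0.45 and Nfkbia -0.072, with the cDC1 score Irf8 -0.057 and Xcr1 -0.26, and with no filter Ccr7 0.013. Leaving out the library labelled Irf1-deleted replicate 1 and floxed replicate 4 together, chosen after seeing the data, gave Irf8 -0.25, Socs1 0.019, Il15 0.16, Il27 -5.32, Xcr1 -1.10 and Cd74 0.012. Leaving out 1 library gave Irf2 -0.19 to 0.10, Irf8 -0.37 to 0.41, Irf9 -0.23 to 0.055, Ifngr1 -0.051 to 0.047, Socs1 -0.27 to 0.061, Gbp2 -0.76 to 0.12, Tap1 -0.64 to 0.12, Psmb9 -0.77 to 0.30, Psmb8 -0.62 to 0.14, Ciita -0.61 to 0.18, Il12b -2.58 to 0.46, Il15 -0.42 to 0.14, Il27 -5.47 to 2.40, Xcr1 -1.07 to 0.63, Batf3 -0.12 to 0.81, Ccr7 -0.74 to 0.32, Cd74 -0.43 to 0.42, Ly6e -0.16 to 0.034, Nfkbia -0.047 to 0.19 and Lyz2 -1.33 to 0.024.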
